A study of Rattus norvegicus with 6 samples.

Results

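Pleiotrophin and midkine and the cell surface proteins that bind them were examined in the mRNA of cultured rat atrial fibroblasts. The set held 8 genes, the ligands Ptn and Mdk, the receptor phosphatase Ptprz1, the syndecans Sdc1, Sdc2, Sdc3 and Sdc4, and the endocytic receptor Lrp1, of the 40154 genes in the deposited table. Ptn was selected on its measured fall between the groups compared here, so its values are a description and were given no test. The other 7 genes were added as its family member and receptors, with earlier results of these data known. The fibroblasts came from hearts of Sprague-Dawley rats aged 1 to 3 days, which were minced and digested together, and myocytes were removed by letting the other cells adhere first. They were transfected with si-NC, a control siRNA, or with si-GPD1L, an siRNA against the glycerol-3-phosphate dehydrogenase 1-like gene, and RNA was taken 24 h later. Each group had 3 libraries, and all 6 also carry the treatment label Atrial differentiation, which is not explained further in the sources used here. The sources do not say whether libraries of a group came from separate animals or cultures, so p-values measure the spread between these libraries only, which may be technical. Nor is it stated if the final digit in the names of the si-GPD1L libraries, 1 to 3, stands for a repeat or for a distinct siRNA sequence; it is used here as a replicate number.

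Pleiotrophin and midkine form a family of 2 small, basic, heparin-binding growth factors that are abundant in embryonic tissue and return after injury. Both are secreted and held at the cell surface and in the matrix by the sulfated sugar chains of proteoglycans. PTPRZ1, a receptor tyrosine phosphatase that carries chondroitin sulfate, is their best known signaling receptor, and ligand binding lowers its phosphatase activity. The syndecans are transmembrane proteoglycans that carry heparan sulfate and act as coreceptors, and LRP1, a large member of the LDL receptor family, takes up midkine and many other ligands. In the heart, fibroblasts lay down the matrix in which such factors are stored.

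The total count per library ran from 16892255 to 20149732. Gpd1l, the targeted gene, had normalized counts of 262, 332 and 313 in the si-NC libraries, in the order of their replicate numbers, against 220.3, 208 and 302 for those labelled si-GPD1L. Its log2 fold change was -0.31, with an adjusted p-value of 0.234 by the quasi-likelihood F test of edgeR. An exact two-sided permutation test gave p = 0.20, and with groups of 3 such a test cannot go below 0.10. A normalized count is the read count scaled to the mean library size. The Gpd1l level of si-GPD1L replicate 3 lay inside the si-NC range, so the groups are named here by their labels. The fibroblast label was matched by its markers, with Col1a1 the most abundant of 12, and the summed level of those markers was 35852 to 46708 TPM in si-NC and 44401 to 47675 TPM in si-GPD1L (TPM is a level corrected for gene length and library size). All 12 cardiomyocyte markers were also measurable, with a summed level of 3040.2 to 3217 TPM in si-NC, led by Nppa, and 2810.0 to 2996 TPM in si-GPD1L. The 10 interferon-stimulated genes listed rose in si-GPD1L, from a summed 48.8 to 53.9 TPM to 954 to 1202 TPM. The part of this difference in the results below was not tested.

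Of the 14852 genes tested, 6.36% had an adjusted p-value under 0.05, with 4.03% higher and 2.33% lower in si-GPD1L. The normalized counts of the groups did not overlap for 29.0% of the genes tested. Among the 7 members other than Ptn, 2 had an adjusted p-value under 0.05, Mdk and Sdc2, and both were lower in si-GPD1L. None of the 7 passed the fold change threshold of 1 on the log2 scale. The groups did not overlap for 4 of the 7, Mdk, Sdc2, Sdc3 and Lrp1. With a single library left out, the number of these 7 genes with an adjusted p-value under 0.05 was 0 without si-NC replicate 2, si-GPD1L replicate 1 or si-GPD1L replicate 2, was 1 without si-GPD1L replicate 3, stayed at 2 without si-NC replicate 1 and was 4 without si-NC replicate 3.

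**Figure D1:**
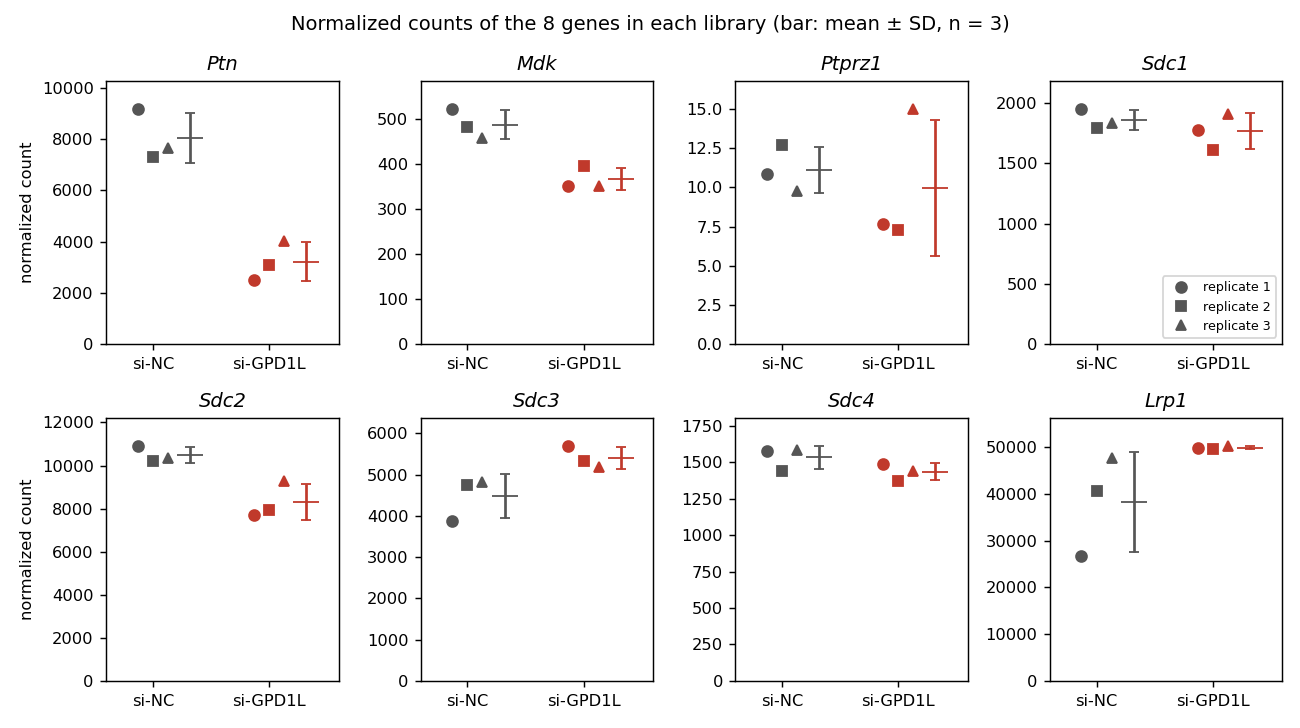
Normalized count (vertical axis, linear from 0) of each of the 8 genes in the 3 si-NC libraries (grey) and the 3 libraries labelled si-GPD1L (red), with symbols for the replicate number and a bar for the mean ± SD. Ptn, Mdk and Sdc2 sit lower in every si-GPD1L library than in any si-NC library, Sdc3 and Lrp1 sit higher, and the Lrp1 counts of si-NC spread from 26709 to 47739.

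The promoter windows of 5 of the 8 genes, Ptn, Sdc1, Sdc3, Sdc4 and Lrp1, were matched by symbol in RefSeq (assembly GRCr8), each from 250 bases before to 50 after a start site. Those of Ptn, which was lower in si-GPD1L, and of Sdc3 and Lrp1, whose means were higher, are shown so that their composition can be compared. They lie at chr4:66342283-66342582 on the minus strand, chr5:148249542-148249841 on the plus strand and chr7:65346147-65346446 on the minus strand of GRCr8. Sequences are written 5′ to 3′ along the gene, and capitals mark matches, on either strand, to the AP-1 element (TGANTCA) or to the GC box (GGGCGG).
Ptn: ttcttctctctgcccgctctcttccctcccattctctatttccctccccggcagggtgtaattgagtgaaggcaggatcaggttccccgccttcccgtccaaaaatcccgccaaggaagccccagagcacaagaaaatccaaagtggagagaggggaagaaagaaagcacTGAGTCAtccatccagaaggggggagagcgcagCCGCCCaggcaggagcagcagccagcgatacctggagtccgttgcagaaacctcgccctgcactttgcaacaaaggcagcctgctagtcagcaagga
Sdc3: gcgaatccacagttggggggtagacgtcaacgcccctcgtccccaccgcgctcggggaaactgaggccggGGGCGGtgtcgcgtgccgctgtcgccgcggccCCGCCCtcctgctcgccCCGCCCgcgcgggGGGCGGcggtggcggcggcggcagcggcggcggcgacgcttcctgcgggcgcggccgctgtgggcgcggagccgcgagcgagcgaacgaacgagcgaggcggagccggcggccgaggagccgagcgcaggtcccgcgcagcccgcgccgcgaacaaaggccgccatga
Lrp1: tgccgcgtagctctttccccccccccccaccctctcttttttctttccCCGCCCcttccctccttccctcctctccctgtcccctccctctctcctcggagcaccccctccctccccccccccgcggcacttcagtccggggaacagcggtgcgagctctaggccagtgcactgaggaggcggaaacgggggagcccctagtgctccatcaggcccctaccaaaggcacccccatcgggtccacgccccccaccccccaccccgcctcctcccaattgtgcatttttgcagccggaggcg

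The AP-1 element, the binding sequence of Fos and Jun proteins, was found in the Ptn window alone of the 5, with its first base at position -80 from the start site, and 7.33% of the 33469 promoters in the table hold it. The GC box, a site for Sp1-type factors, was in all 5 windows and in 33.1% of all promoters. Each of the 5 windows was richer in G and C than at least 66.1% of all promoters, so that share is not one of promoters of like composition. Neither the TATA box (TATAAA, in 14.2% of all promoters), the hypoxia response core (ACGTG, in 19.3%) nor the interferon-stimulated response core (GAAANNGAAA, in 3.92%) was in any of the 5. The windows differed in base composition, from 57% G and C with 10 CpG dinucleotides in Ptn to 79.3% with 57 CpG in Sdc3. The Lrp1 window had 68.3% G and C and 16 CpG, and its single GC box began at position -202. Sdc1 (64.7%, 17 CpG) and Sdc4 (68.7%, 26 CpG), genes for which no difference was shown, also lay between Ptn and Sdc3. Composition therefore did not sort the windows by the direction of change. Motifs were searched on both strands, no other motif was searched, and a match is a letter pattern only.

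Per length of gene, Ptn was the most abundant of the 8 genes in si-NC and Ptprz1 was close to undetected. In si-NC the level of Ptn was 769, 661 and 702 TPM, and 98.7% of the genes tested had a lower si-NC mean. Sdc2 followed with 338, 341 and 351 TPM. Lrp1 spread from 217 to 424 TPM across si-NC and so overlapped Sdc2. Sdc3 came next at 96.9 to 132 TPM. Sdc1 (77.7 to 80.7 TPM) and Sdc4 (75.6 to 84.3 TPM) were not separated from each other by their spread. Mdk was at 37.0 to 38.6 TPM, so that the Ptn level was 17.2 to 19.9 times the Mdk level in the same library. Ptprz1 was at 0.129 to 0.166 TPM, below all but 0.518% of the genes tested. In the libraries labelled si-GPD1L the order at the top differed, with Lrp1 at 450.2 to 457 TPM above Ptn at 235 to 379 TPM and Sdc2 at 266 to 322 TPM, and the last pair overlapped.

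**Figure D2:**
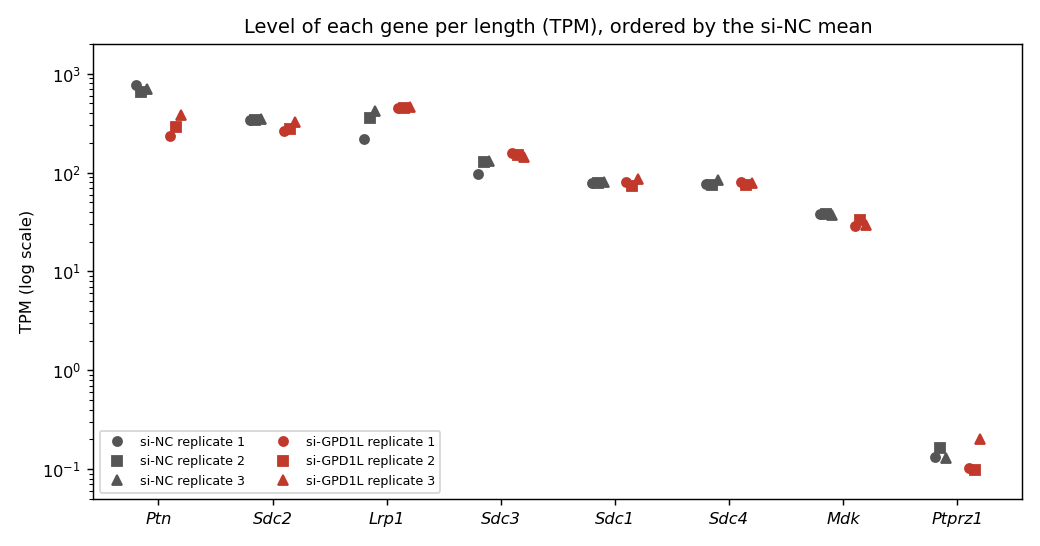
Level of each gene in TPM (vertical axis, log scale) in the 6 libraries, with the genes ordered by their si-NC mean, si-NC in grey, si-GPD1L in red and symbols for the replicate number. Ptn leads in si-NC at 661 to 769 TPM, Lrp1 leads in si-GPD1L, and Ptprz1 lies at about 0.1 to 0.2 TPM in every library.

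Ptn encodes pleiotrophin, a growth factor for nerve, bone and vessel cells. Its locus (NCBI gene 24924) is on chromosome 4, 64239156 to 64330996, minus strand, in rn6, the build named in the submitters' processing notes. Its normalized counts were 9161, 7308 and 7637 in si-NC and 2519.9, 3080.4 and 4024 in si-GPD1L. Every si-GPD1L library was lower than every si-NC library. The mean fell from 8035 ± 989 to 3208 ± 760.1 (SD, n = 3 in each group), to 39.9% of the si-NC mean, a log2 fold change of -1.32. The fall was less deep in si-GPD1L replicate 3, and the log2 fold change was -1.52 without it and -1.18 without si-GPD1L replicate 1. By this fold change Ptn ranked 5 among the 11883 tested genes whose mean normalized count reached 50, and 3 among the 11411 of these that code for protein. The genes ranked just before it were Hist1h2ao (-2.37) and Lipg (-1.39), and Igfbp5 (-1.10) came just after it. These ranks rest on the same contrast that chose the gene.

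Of Ptn, 2 RefSeq transcripts are listed in the deposited transcript counts, of 1312 and 1377 bases. The counts of the shorter transcript were 9263, 6903 and 7819 in si-NC and 2311, 3389 and 4031 in si-GPD1L. These are nearly the gene counts themselves, and the scaled mean in si-GPD1L was 39.9% of that in si-NC. The longer transcript kept 39.6%. It took 79.8% of the gene count in si-NC and 79.1% in si-GPD1L, so both transcripts were lower by a like proportion. The counts of the 2 transcripts sum to more than the gene count, so they share reads and are not independent.

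Mdk, midkine, is the paralog of Ptn and is known as a retinoic acid-induced growth factor. Its locus (NCBI gene 81517) is on chromosome 3, 80841003 to 80843895, minus strand. Its normalized counts were 522, 484 and 458 in si-NC and 352, 395 and 352 in si-GPD1L. The groups did not overlap. The mean fell from 488 ± 32.3 to 367 ± 24.9 (SD, n = 3), to 75.2% of si-NC, with a log2 fold change of -0.41 (95% confidence interval -0.62 to -0.20, adjusted p = 0.0243 in edgeR's quasi-likelihood test). The adjusted p-value was 0.0659 without si-NC replicate 2, and 0.119, 0.0539 and 0.0918 without si-GPD1L replicates 1, 2 and 3, while the log2 fold change stayed between -0.47 and -0.36. Of 4 listed transcripts, the 3 longer ones stood at 74.3% to 75.5% of si-NC, and the shortest, of 423 bases, at 83.2%. Since Mdk was lower by a smaller factor than Ptn, the TPM of Ptn was 8.13 to 13.0 times that of Mdk in si-GPD1L.

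**Figure D3:**
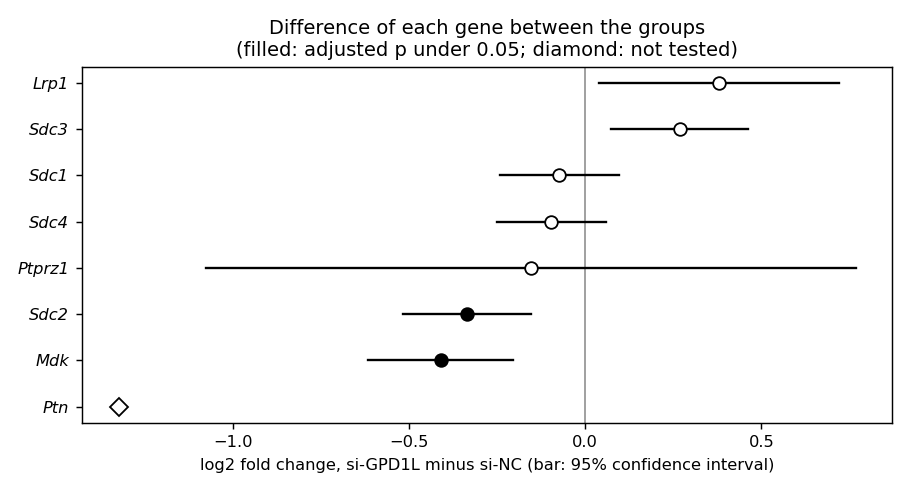
Log2 fold change of each gene (horizontal axis, si-GPD1L minus si-NC) with its 95% confidence interval from the quasi-likelihood fit, where filled circles mark an adjusted p-value under 0.05. Mdk (-0.41) and Sdc2 (-0.34) are filled, Ptn (-1.32, diamond) is shown with no interval because it was chosen by this value, and the interval of Ptprz1 runs from -1.08 to 0.77.

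Ptprz1 (NCBI gene 25613, chromosome 4, 49941046 to 50140764, plus strand) had 11, 12 and 10 raw counts in si-NC and 7, 8 and 15 in si-GPD1L. The highest and the lowest counts were both in si-GPD1L. The log2 fold change was -0.15 (95% confidence interval -1.08 to 0.77, adjusted p = 0.871 from the same test) and became 0.040 without si-GPD1L replicate 2. A difference of the size seen for Mdk was therefore not detectable for Ptprz1 at this depth. Among the other listed receptors and partners of the ligands, Alk, a receptor tyrosine kinase linked to both, was also low. Its mean was 0.81 TPM in si-NC and 0.72 TPM in si-GPD1L (adjusted p = 0.680 by the same test).

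Of the 4 syndecans 1 passed the test, Sdc2, and it fell. This syndecan, typical of mesenchymal cells (NCBI gene 25615, chromosome 7, 71572731 to 71686139, plus strand), had normalized counts of 10909, 10207 and 10347 in si-NC and 7711, 7949 and 9268 in si-GPD1L. All 3 si-GPD1L libraries were below the si-NC range. The mean fell from 10488 ± 371 to 8309 ± 838 (SD, n = 3), to 79.2% of si-NC (log2 fold change -0.34, 95% confidence interval -0.52 to -0.15, adjusted p = 0.0356 in edgeR's quasi-likelihood test). The adjusted p-value was 0.0818, 0.186 and 0.205 without si-NC replicate 2, si-GPD1L replicate 1 and si-GPD1L replicate 2, and the log2 fold change ran from -0.42 to -0.29 when 1 library was left out. Both listed transcripts of Sdc2, of 2155 and 3463 bases, were lower, at 79.3% and 76.3% of si-NC.

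Sdc3, known best from nerve and muscle (NCBI gene 116673, chromosome 5, 148923098 to 148956404, plus strand), had normalized counts of 3879, 4761 and 4830.5 in si-NC and 5696, 5336 and 5184 in si-GPD1L. The groups did not overlap, and si-NC replicate 1 was the lowest library. The mean was 4490.05 ± 530.5 in si-NC and 5405 ± 263 in si-GPD1L (SD, n = 3), a log2 fold change of 0.27 (95% confidence interval 0.072 to 0.46) that missed the threshold (adjusted p = 0.101). Leaving out si-NC replicate 3 gave an adjusted p-value of 0.0497 and leaving out si-NC replicate 1 gave 0.0601, within a range of 0.0234 to 0.334 over all alternatives.

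Sdc1, the main syndecan of epithelia (NCBI gene 25216, chromosome 6, 33885576 to 33908038, plus strand), had normalized counts of 1947, 1793 and 1832 in si-NC and 1778, 1608 and 1911 in si-GPD1L. The ranges overlapped, and the log2 fold change was -0.073 (95% confidence interval -0.24 to 0.096, adjusted p = 0.631). Sdc4, a component of focal adhesions (NCBI gene 24771, chromosome 3, 160872503 to 160891190, minus strand), had normalized counts of 1575, 1442 and 1583 in si-NC and 1491, 1374 and 1440.4 in si-GPD1L. Its ranges overlapped as well, with a log2 fold change of -0.096 (95% confidence interval -0.25 to 0.058, adjusted p = 0.458). For neither gene was a difference shown, and the intervals reach down to -0.25 on the log2 scale. Both were tested by edgeR.

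Summed over the 4 syndecans the level was 590 to 648 TPM in si-NC and 576 to 633 TPM in si-GPD1L, so the sums overlapped. Within that sum Sdc2 held 54.1% to 57.3% in si-NC against 45.5% to 50.9% in si-GPD1L. Sdc3 held 16.4% to 20.6% in si-NC against 23.0% to 27.1% in si-GPD1L. Neither range overlapped between the groups. Both shares are parts of the same sum, so they are not separate results, and they were not tested. The lowest Sdc3 share was that of si-NC replicate 1. The share of Sdc1 was 12.4% to 13.6% and that of Sdc4 12.1% to 13.8% across all 6 libraries.

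Lrp1 encodes a scavenger receptor that clears proteases, inhibitors and growth factors from the cell surface. Its locus (NCBI gene 299858) is on chromosome 7, 70846313 to 70927028, minus strand, with 646 kb between it and Sdc2. Its normalized counts were 26709, 40548 and 47739 in si-NC and 49881, 49537 and 50251 in si-GPD1L. The groups did not overlap, but the si-NC libraries spread widely while those of si-GPD1L lay close together. The mean was 38332 ± 10689 in si-NC and 49889 ± 357 in si-GPD1L (SD, n = 3), and the log2 fold change of 0.38 (95% confidence interval 0.040 to 0.72) missed the threshold (adjusted p = 0.175 in edgeR's quasi-likelihood test). Without si-NC replicate 1 it was 0.18 (adjusted p = 0.0516) and without si-NC replicate 3 it was 0.57 (adjusted p = 0.0250). The size of the difference therefore depended on which si-NC library was used.

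Lrp1 is the longest of the 8 genes, at 14921 bases of exon length in the deposited table, and si-NC replicate 1 was low across long genes. For the 671 tested genes of 10 kb or more, the median deviation of that library from the mean of the 6 libraries was -0.22 on the log2 scale, against -0.029 and 0.060 in the other si-NC libraries and between 0.061 and 0.078 in si-GPD1L. For the 4410 genes under 2 kb, among them Ptn and Mdk, it was 0.12 in si-NC replicate 1 and between -0.041 and 0.025 in the other libraries. Lrp1 deviated by -0.69 in si-NC replicate 1, and Sdc3, of 4841 bases, by -0.34. In the class of 2 to 5 kb, which holds Sdc3, the median of that library was only -0.0087, so genes of that length were not low in general. After each library's trend with gene length was taken out, a step chosen after these values were seen, the log2 fold change was 0.27 for Lrp1 (adjusted p = 0.123), 0.25 for Sdc3 (adjusted p = 0.0562), -0.37 for Mdk (adjusted p = 0.0208), -0.35 for Sdc2 (adjusted p = 0.0125) and -1.27 for Ptn. The same edgeR test gave these adjusted p-values.

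**Figure D4:**
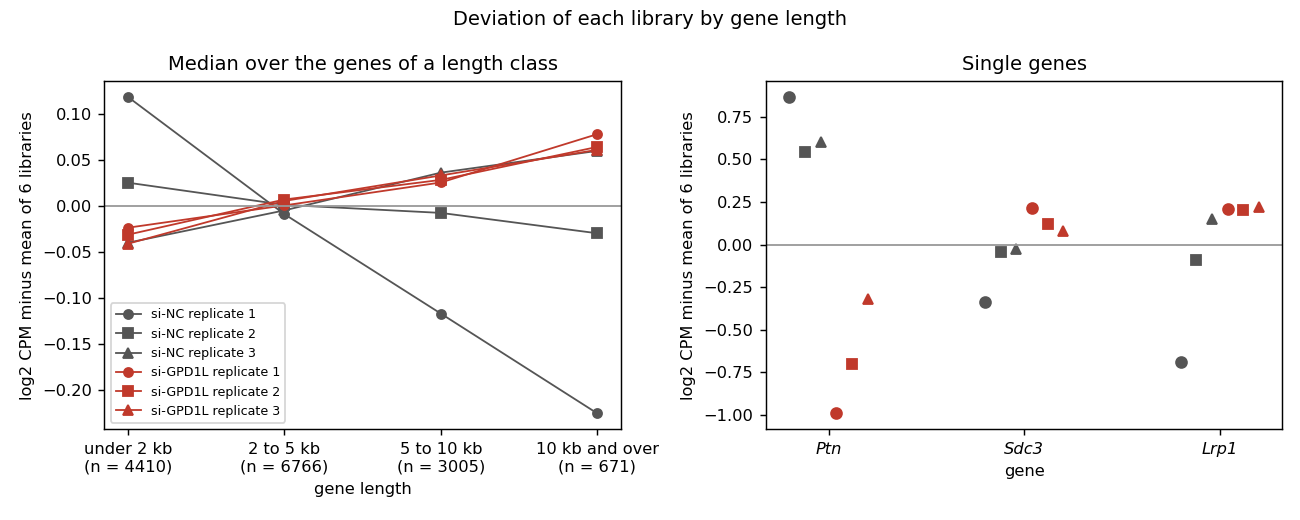
Left, the median over the tested genes of 4 length classes (horizontal axis) of the log2 CPM of a library minus the mean of the 6 libraries (vertical axis), with si-NC in grey and si-GPD1L in red. Si-NC replicate 1 runs from 0.12 under 2 kb to -0.22 at 10 kb and over. Right, the same deviation for Ptn, Sdc3 and Lrp1 in each library, where Lrp1 stands at -0.69 in si-NC replicate 1.

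Around the members, 7 lists of genes of the same pathway were described by their counts, to be read against the 6.36% of all genes tested, and no list was tested as a set. The median log2 fold change of all genes tested was -0.0049. Of the other receptors and partners of the ligands, 17 of 18 were tested and 1 rose. It was Vcan, whose product versican is a matrix chondroitin sulfate proteoglycan, with normalized counts of 11652 to 12432 in si-NC against 16797 to 18488 in si-GPD1L (log2 fold change 0.53, adjusted p = 0.000897 in edgeR's quasi-likelihood test). Itgb1, the integrin beta chain with the highest level of that list, had a log2 fold change of -0.076 (adjusted p = 0.635), and Ncl, nucleolin, one of -0.16 (adjusted p = 0.430). The median of the list was 0.14.

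Among other cell surface and basement membrane proteoglycan cores, 12 of 13 listed were tested. There were 3 rises and no fall with an adjusted p-value under 0.05 (25.0%). Agrn, agrin, of basement membranes, had 1269.5 to 1731 normalized counts in si-NC against 2802 to 2982 in si-GPD1L (log2 fold change 0.88, adjusted p = 0.000153). Cspg4, the NG2 proteoglycan, had 767 to 1163 in si-NC against 1637 to 1751 in si-GPD1L (log2 fold change 0.80, adjusted p = 0.00130), and Gpc1, glypican 1, a heparan sulfate proteoglycan with a lipid anchor, had 1460.4 to 1766 and 2243 to 2337 (log2 fold change 0.47, adjusted p = 0.00455). The lowest of these counts were again those of si-NC replicate 1, without which the log2 fold changes were 0.76, 0.66 and 0.38. The median of the list was 0.077, with 6 of the 12 tested above 0 and values from -0.46 to 0.88. The proteoglycan genes Lum and Dcn, given among the fibroblast markers below, are not in this list. Tests are edgeR's quasi-likelihood test.

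Heparan sulfate, the chain of syndecans and glypicans, is built and then edited by sulfotransferases and sulfatases. Of the 31 genes listed for these steps, 24 were tested, 2 rose and 1 fell. Papss2, which makes the sulfate donor, rose by 0.55 on the log2 scale (adjusted p = 0.0174), Sulf2, which removes 6-O-sulfate outside the cell, rose by 0.31 (adjusted p = 0.0487), and Hs6st2, which adds 6-O-sulfate, fell by 0.36 on the log2 scale (adjusted p = 0.0349). Sulf2 was past the threshold in 8 of its 15 alternatives, with adjusted p-values from 0.00527 to 0.217 and of 0.0609 with the replicate block. No call in this list was held when either si-GPD1L replicate 1 or si-GPD1L replicate 2 was left out. Of 16 genes for chondroitin sulfate, the chain of PTPRZ1 and versican, 15 were tested and 2 rose, Chpf2 of the polymerizing complex (0.36, adjusted p = 0.0172) and Chst15, which makes the highly sulfated E unit (0.47, adjusted p = 0.0478). Neither was held without either of the same 2 libraries. Chst15 was past the threshold in only 6 of its 15 alternatives, with adjusted p-values from 0.0107 to 0.218 and of 0.0645 with the replicate block. All are in edgeR's quasi-likelihood test.

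Among the binding proteins and sheddases of syndecans, 15 of 17 were tested and 1 fell, Mmp14, a membrane-bound protease that can shed syndecan 1 (log2 fold change -0.30, adjusted p = 0.0410). The call was lost in each fit that left out a library other than si-NC replicate 1, with adjusted p-values up to 0.228. For LRP1, the list of chaperone, adaptors, ligands and LDL receptor family held 28 names, of which Ccn2 and Ctgf are the same gene, and 25 were tested. A list gene that passed the test is not reported here and is left out of these counts. Past the threshold was 1 of the 25 (4%), Lpl, lipoprotein lipase. It fell from a range of 4089 to 4865 normalized counts to one of 2320.3 to 3239 (log2 fold change -0.68, adjusted p = 0.00257). Most of the list went the other way, with 20 of the 25 above 0 and a median log2 fold change of 0.088. Of the 14 PTPRZ1 ligands and substrates, 10 were tested and none had an adjusted p-value under 0.05. An unadjusted p-value under 0.05 was found for 1, Afap1l2 (log2 fold change -0.19, adjusted p = 0.175), and for 22.4% of all genes tested. DESeq2 gave no adjusted p-value under 0.05 in that list either. Without a filter on low counts, edgeR's quasi-likelihood test, from which the other values come, gave 1.

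**Figure D5:**
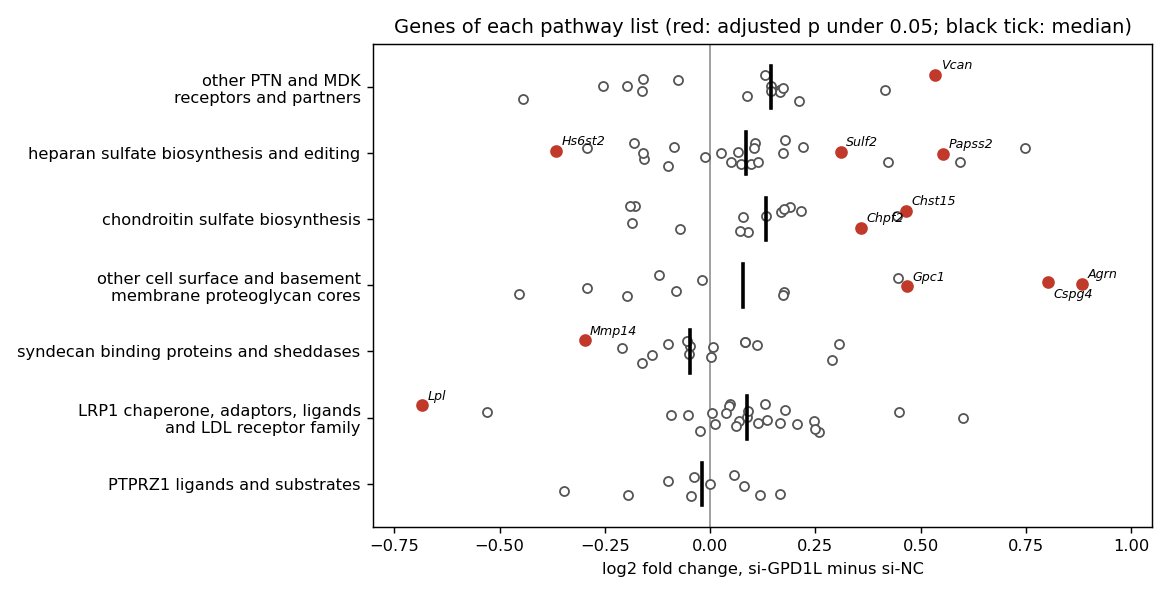
Log2 fold change (horizontal axis, si-GPD1L minus si-NC) of the tested genes of 7 pathway lists, 1 circle per gene and spread vertically at random, with a black tick at the median of the list. The named red circles had an adjusted p-value under 0.05, from Lpl at -0.68 to Agrn at 0.88, and the medians lie between -0.049 and 0.14.

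Over the 6 libraries, the genes with a profile most like that of Ptn in log2 CPM (counts scaled to library size), among 11038 named genes whose mean normalized count reached 50, were Sqle, Dusp1, Kcnd3, Lgalsl and Man1a1. Their Pearson correlations with Ptn ran from 0.992 to 0.997, and from 0.94 to 0.99 with the group means removed. Their log2 fold changes were smaller than that of Ptn, from -0.77 for Kcnd3 to -0.33 for Lgalsl. Zfp317, Dzf17 and Ptges2 were most like Mdk (0.990 to 0.995). These are descriptions over 6 points that share the 2 groups and their libraries, and any gene that differs between the groups in the same direction will score high.

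Markers of other cell types that such a culture can hold differed between the groups in part. The counts below are to be read against all genes tested. Of these, 6.36% had an adjusted and 22.4% an unadjusted p-value under 0.05 in edgeR's quasi-likelihood test. All 11 endothelial markers tested had a log2 fold change above 0, with a median of 0.56, and 4 rose after adjustment (36.4%). Flt1, the most abundant, had the smallest value (0.12), and Plvap the highest (1.44, adjusted p = 0.000351 in edgeR's quasi-likelihood test). Their summed level lay between 42.8 and 55.4 TPM in si-NC and between 67.8 and 75.9 TPM in si-GPD1L. Most markers of the muscle, fibroblast and Schwann cell lists had values below 0. Among the members, Ptn, Mdk and Sdc2 lay below 0 and Sdc3 and Lrp1 above it. For macrophages 5 of 12 were above 0 (median -0.020), and the median of all genes tested was -0.0049. Log2 fold changes were above 0 for 1 of 12 smooth muscle and pericyte markers (median -0.16, 4 with an unadjusted p-value under 0.05), for 2 of 12 cardiomyocyte markers (median -0.16, 5 with such a p-value), for 3 of 12 fibroblast markers (median -0.079, 6 with such a p-value) and for 2 of 8 Schwann cell and neural crest markers (median -0.41). After adjustment, of 12 cardiomyocyte markers 1 fell, Pln, of 12 markers of smooth muscle and pericytes 1 fell, Des, and of 12 fibroblast markers 2 fell, the proteoglycan genes Lum (log2 fold change -0.77) and Dcn (-0.66). Smooth muscle and pericyte markers, led by Acta2, summed to 9502 to 10057 TPM in si-NC and 9138 to 9523 TPM in si-GPD1L. None of 12 macrophage markers had an adjusted p-value or an unadjusted p-value under 0.05 in edgeR's quasi-likelihood test, and their sums, led by Lyz2, were 232 to 268 TPM and 219.8 to 319.6 TPM. Of the 8 Schwann cell and neural crest markers tested, cells in which Ptn and Ptprz1 are also known, none had an adjusted p-value under 0.05 and 3 had an unadjusted p-value under 0.05, and their summed level, led by Mbp, was 16.7 to 22.7 TPM in si-NC and 15.5 to 17.8 TPM in si-GPD1L. No marker of these lists was at 0 in every library. In bulk RNA fewer cells of a type and less RNA per cell cannot be told apart, and the part of these markers in the values of Ptn, Mdk and Sdc2 was not tested.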

How the data were processed

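The authors deposited raw read counts for 40154 genes and 55760 transcripts, and TPM values that equal the counts divided by gene length and scaled to the same sum in each library. Submitters' processing notes name bcl2fastq, HISAT2 2.1.0, HTSeq 0.12.4 and rn6, while use of strand is not given in the sources used here. The deposited comparison of the groups (fold changes, p-values) and the enrichment tables were not used. Counts were matched to samples by column name. With R 4.3.3 and edgeR 4.0.16, 14852 genes passed filterByExpr, were normalized by TMM and compared by the quasi-likelihood test with Benjamini-Hochberg adjustment over all genes. The standard error is the log2 fold change divided by the square root of F. Spread between libraries, as the biological coefficient of variation, was 0.0894. Counts of any 2 libraries in the same group were farther apart than sampling alone gives (chi-square per degree of freedom 3.92 to 27.7), so none was a library deposited again, which does not show that they came from separate cultures. Intervals cover the fit's error only.

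The members and lists were chosen with earlier results of these data known. Named were the members, Gpd1l, up to 4 genes per list with an adjusted p-value under 0.05 (otherwise the smallest p), the markers with the highest level, the genes most like Ptn and Mdk, and those next to Ptn in rank. A list gene and a gene next in rank that these rules would name are not reported here, and the former, which passed the test, was left out of the LRP1 list, whose count and share are given without it. A few further genes were named after their values were seen: Alk, Itgb1, Ncl, Lum, Dcn, Pln, Des and Plvap. Replicate numbers did not pair the libraries. Alternatives were other size factors, DESeq2 1.42.0, edgeR's exact test, other filters, a replicate block, each library left out, transcript counts summed per gene and, added later, removal of the length trend. The tests were first tested on simulated counts. Figures were drawn with matplotlib 3.10.9.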

Additional observations from a re-analysis of the deposited data

How the results depend on the processing

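Ptn, Mdk, the 4 syndecans and Lrp1 kept their direction in all 15 alternatives of each. Ptprz1 changed sign without si-GPD1L replicate 2 (0.040, in a range of -0.57 to 0.040 over the fits that left out 1 library). In those fits the log2 fold changes ranged from -0.47 to -0.36 in Mdk, from -0.42 to -0.29 for Sdc2, from 0.17 to 0.32 for Sdc3 and from 0.18 to 0.57 for Lrp1, the number of genes with an adjusted p-value under 0.05 from 361 to 1531, and the number of members other than Ptn from 0 to 4. The numbers ran from 0 to 2 for chondroitin sulfate, 0 to 5 for heparan sulfate, 1 to 3 for the LRP1 list, 3 to 6 for proteoglycan cores, 1 to 2 for other receptors and 0 to 2 for sheddases. With a log2 fold change over 1 required as well, 240 of the 945 genes were left, 0 of the members other than Ptn and 0 of each pathway list. Without a filter beyond 1 count there were 1929 genes and 4 members, since Lrp1 (0.38, adjusted p = 7.76e-05, in a range of 7.76e-05 to 0.387 over its alternatives) and Sdc3 (0.27, adjusted p = 0.0234) passed in edgeR's quasi-likelihood test, and the lists had 4 genes for chondroitin sulfate, 5 for LRP1, 5 for proteoglycan cores, 2 for other receptors, 2 for sheddases and 1 for PTPRZ1. The cause was not tested. With at least 10 counts in every library, which removes genes near 0 in si-NC, 4 of 10 interferon-stimulated genes and 1 chondroitin sulfate gene were called. The exact test called 1528 genes, and it and DESeq2 each called 5 proteoglycan cores, 2 other receptors and 2 sheddases. Transcript sums called 623 genes, 1 for heparan sulfate and 1 for PTPRZ1. Removing the length trend gave 5 for heparan sulfate, 2 for LRP1, 5 proteoglycan cores, 2 other receptors and 2 sheddases. Upper-quartile normalization gave 1 for chondroitin sulfate. The replicate block gave 921 genes, 1 for chondroitin sulfate (Chst15 lost), 2 for heparan sulfate (Sulf2 lost) and 4 proteoglycan cores. The deviations of same-numbered libraries correlated at -0.012, -0.0059 and 0.043, so the numbers mark no pairing, and the block changed no call of a member.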
